A study of Mus musculus with 19 samples.

Results

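The genes described here are 10 myogenic regulators and satellite cell genes, chosen by name and found among the 48795 genes measured by RNA sequencing in 19 primary p53/MCA sarcomas of mice. They are the lineage factors Myf5, Myod1, Myog and Myf6, their partner Mef2c, the satellite cell genes Pax7, Cdh15 and Ncam1, the fusion gene Mymk and the embryonic light chain Myl4. Of the tumors, 11 were from mice labelled Rag2-/-, which lack mature T and B cells, and 8 from mice labelled Rag2+/-, which have them. Every tumor was started at an age of 6 to 10 weeks in the gastrocnemius, a muscle of the calf, with an adenovirus that carried Cas9 and a guide against Trp53, followed by 300 µg of the carcinogen 3-methylcholanthrene (MCA) in sesame oil. The tumors received no treatment and were taken at a volume of about 70 to 150 mm3. The virus was not restricted to a cell type, and each library came from a piece of whole tumor, so that muscle caught in the tissue and muscle genes used by tumor cells cannot be told apart. Fewer cells of a type and less RNA per cell cannot be told apart either.

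Skeletal muscle is made by a short cascade of transcription factors. Pax7 marks satellite cells, the stem cells that lie against each muscle fiber. Once activated, they use Myf5 and Myod1 to enter the muscle lineage, then Myog to leave the cell cycle and differentiate, while Myf6 (also called Mrf4) is the member of this family that remains high in adult fibers. All 4 are basic helix-loop-helix proteins, which bind the E-box CANNTG in DNA together with E proteins such as Tcf3 and Tcf12. Mef2c is a MADS-box factor that acts with them, Mymk makes membranes of myoblasts competent to fuse, Cdh15 (M-cadherin) and Ncam1 are adhesion proteins of muscle cells, and Myl4 is a myosin light chain of embryonic muscle and of the atrium.

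The DNA just before the start of transcription is shown for 4 members, 2 whose 250 bases hold E-boxes and 2 whose bases do not. The sequences are RefSeq's for GRCm38.p6, which held 6 of the 10 members, and each is given 5′ to 3′ on the strand of the gene. Capitals mark CANNTG, which reads the same on both strands, and the core of a MEF2 site, which is TANNNNTA with A or T at each N and was searched on both strands. No E-box overlapped a MEF2 core in these 4 windows.
Myog, chr1:134289754-134290003, plus strand: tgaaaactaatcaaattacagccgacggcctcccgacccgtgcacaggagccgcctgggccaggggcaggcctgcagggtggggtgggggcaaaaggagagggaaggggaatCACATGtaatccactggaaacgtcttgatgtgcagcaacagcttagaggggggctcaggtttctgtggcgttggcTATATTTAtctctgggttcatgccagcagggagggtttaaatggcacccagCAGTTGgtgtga
Mef2c, chr13:83503784-83504033, plus strand: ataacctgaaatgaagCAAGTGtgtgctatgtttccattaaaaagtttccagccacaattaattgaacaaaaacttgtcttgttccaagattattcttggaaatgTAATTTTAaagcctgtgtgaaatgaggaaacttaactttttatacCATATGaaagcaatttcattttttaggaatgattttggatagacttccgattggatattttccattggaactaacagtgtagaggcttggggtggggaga
Myl4, chr11:104550413-104550662, plus strand: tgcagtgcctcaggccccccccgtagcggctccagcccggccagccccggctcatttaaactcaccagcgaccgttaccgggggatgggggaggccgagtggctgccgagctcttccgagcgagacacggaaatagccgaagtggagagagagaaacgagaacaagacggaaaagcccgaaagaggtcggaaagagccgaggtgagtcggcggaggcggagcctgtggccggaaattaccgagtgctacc
Myf5, chr10:107486135-107486384, minus strand: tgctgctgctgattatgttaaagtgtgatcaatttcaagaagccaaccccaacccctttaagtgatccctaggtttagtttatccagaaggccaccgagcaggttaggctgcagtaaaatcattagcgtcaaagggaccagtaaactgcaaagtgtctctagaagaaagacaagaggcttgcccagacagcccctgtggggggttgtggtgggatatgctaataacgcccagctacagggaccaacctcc
The Myog window held 2 E-boxes, of which CAGTTG lay 12 to 7 bases before the RefSeq start, and 1 MEF2 core 63 to 56 bases before it. GENCODE vM21 puts the start of Myog at 134289989, inside this window, so that by that annotation CAGTTG lies just after the start. The first of 3 annotated Mef2c windows also held 2 E-boxes and 1 MEF2 core. Among all 32841 windows of this length, 66.2% held at least 1 E-box and 8.55% a MEF2 core, so that the matches describe the sequences and are not shown to be sites.

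The deposited values are log2(FPKM + 0.1), where FPKM counts fragments per kilobase of transcript, scaled by the upper quartile of each tumor. A gene without reads stands at a floor of -3.32. From the steps between low values, 25.0 to 33.7 M fragments on genes were estimated in 18 tumors and 5.23 M in the Rag2-/- tumor S41. Rag2 itself was at -0.34 ± 0.74 (SD, n = 11) in Rag2-/- and -1.31 ± 0.70 (SD, n = 8) in Rag2+/- tumors (p = 0.0123, exact permutation test). The values do not show which part of Rag2 was read, so this is no check of the labels. Cd3e, a subunit of the CD3 complex of T cells, stood at the floor in every Rag2-/- tumor and at a mean of 1.47 in Rag2+/- tumors. Trp53 was at 4.31 ± 0.44 (SD, n = 11) and 4.52 ± 0.91 (SD, n = 8).

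**Figure D1:**
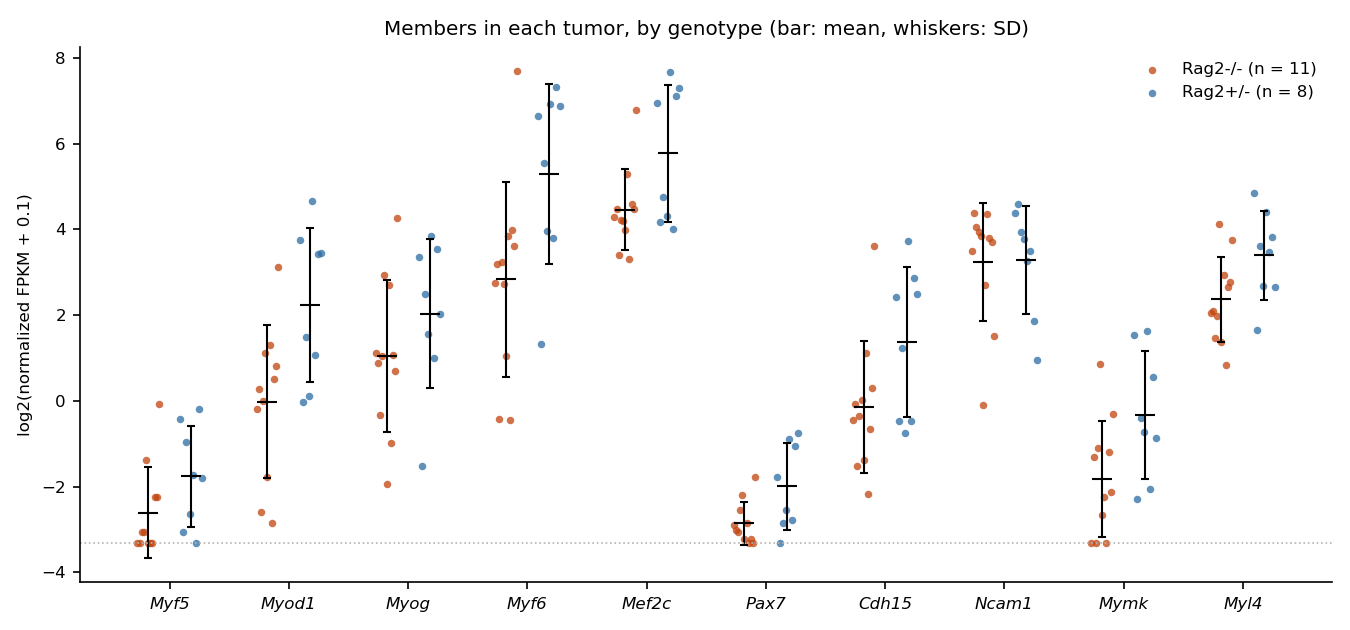
Value of each of the 10 genes in every tumor (vertical axis, log2 of normalized FPKM + 0.1; dotted line, the floor of -3.32), with 11 Rag2-/- and 8 Rag2+/- tumors side by side, bars at the mean and whiskers of 1 SD. Mef2c and Myf6 reach the highest values, Pax7 and Myf5 lie near the floor, and no gene separates the 2 groups.

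Among the lineage factors, Myf6 was the most abundant per length and Myf5 the least. Myf6 ranged from 0.636 normalized FPKM (Rag2-/- tumor S48) to 206 (Rag2-/- tumor S51), a 324-fold range, with a median of 13.9. On the log2 scale, its lowest, median and highest values were -0.44, 3.18 and 7.69 in Rag2-/- and 1.33, 6.09 and 7.32 in Rag2+/- tumors. The highest value of all was thus in a Rag2-/- tumor, and 3 of the 11 Rag2-/- tumors lay below every Rag2+/- tumor.

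Myod1 stood at -2.85, 0.27 and 3.14 (lowest, median and highest) in Rag2-/- and at -0.03, 2.46 and 4.67 in Rag2+/- tumors. In this gene 4 Rag2+/- tumors lay above every Rag2-/- tumor and 4 Rag2-/- tumors below every Rag2+/- tumor, which was the widest parting of the groups among the lineage factors, but the groups overlapped. Myog stood at -1.94, 1.06 and 4.28 in Rag2-/- and at -1.51, 2.25 and 3.84 in Rag2+/- tumors, so that the ranges were nearly the same. Myf6 was above Myod1 in 19 of 19 tumors and above Myog in all but the Rag2-/- tumors S43 and S45. Myod1 was above Myog in 2 of 11 Rag2-/- and 5 of 8 Rag2+/- tumors. These comparisons come from 6 pairs chosen after the values were seen, and were not tested.

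Myf5 lies 6718 bases from Myf6 on chromosome 10, on the same strand (GRCm38, Myf5 107482908 to 107486134, Myf6 107492853 to 107494737), yet its highest value was 0.852 normalized FPKM. It was at the floor in 5 Rag2-/- tumors and 1 Rag2+/- tumor, and 10 of 19 tumors held at most 3 estimated fragments. Its lowest, median and highest log2 values were -3.32, -3.07 and -0.07 in Rag2-/- and -3.32, -1.76 and -0.18 in Rag2+/- tumors.

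Mef2c was the most abundant of the 10 genes at the median, with 22.1 normalized FPKM and a range of 9.89 to 202. Its lowest, median and highest log2 values were 3.32, 4.29 and 6.80 in Rag2-/- and 4.01, 5.85 and 7.66 in Rag2+/- tumors. The Rag2+/- tumors fell into 4 at or below 4.75 and 4 at or above 6.95, and S51 was the 1 Rag2-/- tumor beyond 5.30. Mef2c is also used by endothelial and immune cells, so that its level in a whole tumor has several possible sources, whose shares were not tested.

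Pax7, the satellite cell factor, was lower than every other member at the median over all 19 tumors, although the median of Myf5 was lower in the Rag2-/- tumors alone. It stood at -3.32, -3.01 and -1.78 in Rag2-/- and at -3.32, -2.16 and -0.74 in Rag2+/- tumors, and its highest value, in the Rag2+/- tumor S60, was 0.499 normalized FPKM or 52 estimated fragments. In 8 of 19 tumors it had at most 3 estimated fragments. Cdh15 stood at -2.17, -0.34 and 3.62 in Rag2-/- and at -0.74, 1.83 and 3.72 in Rag2+/- tumors, and S51 was again the highest Rag2-/- tumor. Ncam1 had the opposite shape, with most tumors high and a few low. It stood at -0.09, 3.80 and 4.38 in Rag2-/- and at 0.96, 3.65 and 4.59 in Rag2+/- tumors, and the lowest values were in S46 (-0.09), S60 (0.96), S51 (1.52) and S59 (1.87).

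Mymk was at the floor in 3 Rag2-/- tumors and 0 Rag2+/- tumors. It stood at -3.32, -2.13 and 0.86 in Rag2-/- and at -2.30, -0.56 and 1.63 in Rag2+/- tumors, and the highest Rag2-/- tumor was S45. Myl4 was measured well above the floor throughout, at 0.84, 2.09 and 4.12 in Rag2-/- and at 1.66, 3.54 and 4.85 in Rag2+/- tumors, and S45 was the highest Rag2-/- tumor here too.

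The first comparison asked whether these genes differed between tumors that grew with and without lymphocytes. The largest differences were in Myf6 and Myod1, with means 5.52-fold and 4.80-fold lower in Rag2-/- tumors, and none of the 10 genes passed the test across all genes. For Myod1 the means were -0.02 ± 1.78 (SD, n = 11) in Rag2-/- and 2.24 ± 1.80 (SD, n = 8) in Rag2+/- tumors, and they differed by -2.26 ± 0.78 (SE; limma adjusted p = 0.310). For Myf6 they were 2.84 ± 2.27 and 5.30 ± 2.10, which differed by -2.46 ± 0.95 (SE; limma adjusted p = 0.310). The differences were -1.52 for Cdh15, -1.50 for Mymk, -1.32 for Mef2c, -1.03 for Myl4 and -0.99 for Myog, with limma adjusted p between 0.310 and 0.468. In Ncam1 it was -0.04 ± 0.58 (SE; limma adjusted p = 0.972), an estimate that turned to 0.56 in the 15 tumors that the source data of the study lists.

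Over the 15703 genes above the limit on low values, a mean log2 value of -2, limma called 24, or 0.153%, and 0 of the 8 members tested there. At an unadjusted p below 0.05, 9.15% of the genes tested were lower in Rag2-/- tumors, and 6 of the 8 members were among them (Myod1, Myf6, Mef2c, Mymk, Myl4 and Cdh15). Over all genes 1437 were lower and 1033 higher at that p, but 758 lower and 2469 higher after scaling each tumor to its estimated fragments. Pax7 and Myf5 lay under the limit. Tested alone by exact permutation of all 75582 ways to label the tumors, 6 of the 10 genes had an unadjusted p below 0.05. These were Myod1 (p = 0.0150), Pax7 (p = 0.0249), Myf6 (p = 0.0288), Mymk (p = 0.0373), Mef2c (p = 0.0417) and Myl4 (p = 0.0443). Among the genes above the limit, which leaves out Pax7, 5 of the 8 members were lower by this exact test, against 7.75% of all genes tested. The exact p was 0.0627 for Cdh15, 0.119 for Myf5, 0.242 for Myog and 0.95 for Ncam1. Leaving out single tumors moved the count of 6 among the 10 genes to between 1 and 8. It was 1 without S56 or S59, 2 without S52 and 3 without S41, S43, S46, S48 or S60, and Myod1 alone remained below 0.05 whichever tumor was left out (highest p = 0.0359, exact permutation test).

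Mature muscle genes had lower means in Rag2-/- tumors too, but limma called 0 of the 30 used here between genotypes. The mature muscle level is the mean log2 value of 30 genes of the adult sarcomere and fiber that hold none of the 10 members. It was 6.12 ± 1.79 (SD, n = 11) in Rag2-/- and 8.26 ± 2.24 (SD, n = 8) in Rag2+/- tumors (unadjusted p = 0.0345, exact permutation test). Its lowest, median and highest values were 2.66, 6.06 and 9.32 in Rag2-/- and 4.94, 8.64 and 11.1 in Rag2+/- tumors. The 5 tumors above 8 were S51, a Rag2-/- tumor, and the Rag2+/- tumors S60, S59, S52 and S56, and the other 14 were at or below 7.90. With the mature muscle level as a covariate, the genotype differences of the members lay between -0.59 (Ncam1) and 0.64 (Myog). They were nearer to 0 than without the covariate in every member tested but Ncam1, where the difference was farther from 0. That of Myod1 was -0.42 ± 0.28 (SE), that of Myf6 -0.25 ± 0.39 and that of Mef2c -0.06 ± 0.23, and the limma adjusted p was 0.9999 for each of the 8 members tested.

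**Figure D2:**
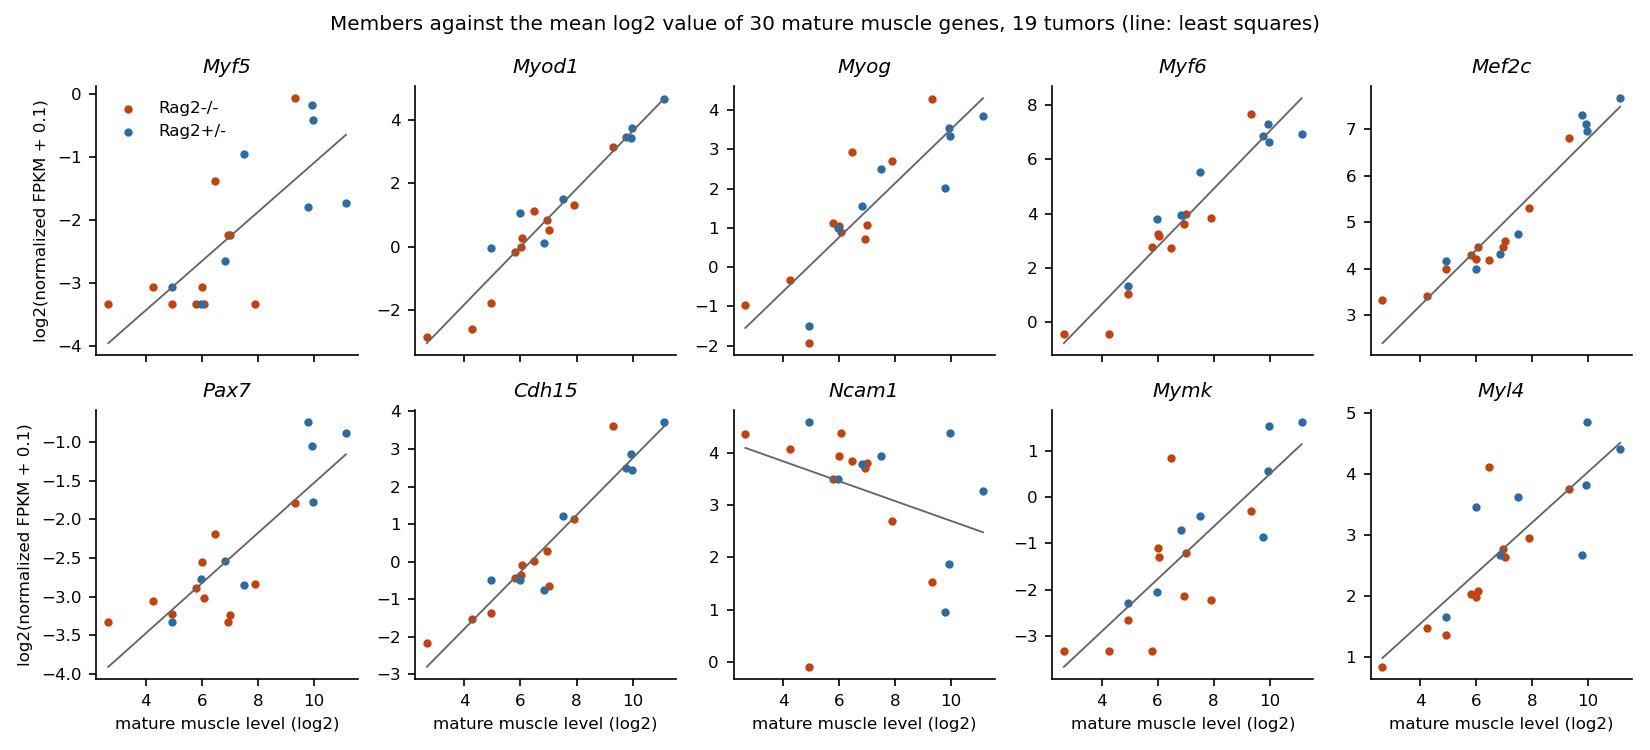
Value of each gene (vertical axes, log2 of normalized FPKM + 0.1) against the mature muscle level (horizontal axes, mean log2 value of 30 genes) in 11 Rag2-/- and 8 Rag2+/- tumors, with a least-squares line over all 19. Points of both genotypes lie along one rising line for Myod1, Myf6, Mef2c and Cdh15, with r of 0.948 to 0.967, and Ncam1 slopes the other way.

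The second comparison asked how closely each member followed mature muscle from tumor to tumor. Myod1, Myf6, Cdh15, Mef2c, Myog, Mymk and Myl4 rose with the mature muscle level, and Ncam1 did not. Myf6 rose by 1.04 ± 0.09 log2 units (SE) for each log2 unit of mature muscle (limma adjusted p = 3.16e-08), beside a median slope of 1.06 over the 30 mature muscle genes, which make up that level themselves. Myod1 rose by 0.86 ± 0.07 (SE; limma adjusted p = 3.77e-09), Cdh15 by 0.77 ± 0.07 (1.02e-07), Myog by 0.76 ± 0.11 (2.34e-05) and Mef2c by 0.59 ± 0.05 (4.78e-08). The fusion gene Mymk and the light chain Myl4 were shallower, with 0.53 ± 0.12 (limma adjusted p = 0.00126) and 0.39 ± 0.08 (4.35e-04). The 0.1 added before the log makes slopes of low genes such as Mymk too small. In all, 7 of the 8 members tested rose, against 21.7% of the 15703 genes, while 25% of the genes fell. This split depended on the scaling, since 3413 genes rose and 3927 fell with the values as deposited but 2033 rose and 6016 fell after scaling to estimated fragments, with the same 7 members called. With no limit on low values, Pax7 and Myf5 entered the test, and 9 of 10 members rose.

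Pearson's r with the mature muscle level over 19 tumors was 0.967 for Myod1, 0.951 for Myf6 and for Mef2c, 0.948 for Cdh15, 0.855 for Myog, 0.842 for Pax7, 0.824 for Myl4, 0.803 for Mymk and 0.740 for Myf5. Each of these 9 had a permutation p of at most 3.3e-04, and Spearman's rho was between 0.727 (Myf5) and 0.960 (Mef2c), with permutation p of at most 6.8e-04. Without S48 and S56, the tumors farthest from the median level, r was 0.719 to 0.955 for these 9. Within the 14 tumors below a level of 8, a limit chosen after the levels were seen, r was 0.916 for Myf6, 0.910 for Mef2c and 0.894 for Myod1, but 0.406 for Pax7, 0.486 for Myf5 and 0.598 for Mymk. The relations of these 3 genes were thus weaker without the 5 muscle-rich tumors, where alone Pax7 exceeded -2.

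The relations of the members most like mature muscle were also seen within each genotype. Myod1 had r of 0.963 in the 11 Rag2-/- and 0.964 in the 8 Rag2+/- tumors, Myf6 0.949 and 0.944, Mef2c 0.918 and 0.964, and Cdh15 0.919 and 0.956. Fitted in the Rag2-/- tumors alone, 6 of the 8 members rose, and Mymk had a slope of 0.46 (limma adjusted p = 0.157). For the difference in slope between genotypes, limma called 0 of 15703 genes at an adjusted p below 0.05 and 11.6% of them at an unadjusted p below 0.05, with 0 of the 8 members. The member with the smallest p was Mef2c, whose slope differed by -0.20 ± 0.10 (SE; limma adjusted p = 0.443). Without S51, the one muscle-rich Rag2-/- tumor, 989 genes were called and the Mef2c difference was -0.33 (limma adjusted p = 0.0402), the 1 member called there.

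Ncam1 stood apart from the other members. Its slope was -0.26 ± 0.14 (SE; limma adjusted p = 0.144), with r = -0.326 (permutation p = 0.173) and rho = -0.395 (permutation p = 0.0946). One tumor weighed on this value. S46, with a mature muscle level of 4.94, had by far the least Ncam1, and without it the slope was -0.33 (limma adjusted p = 0.00736) and r = -0.620. The 15 listed tumors, which leave out S46, gave a slope of -0.32 (limma adjusted p = 0.0324). Within the 14 tumors below a muscle level of 8, r was -0.053. Of the 5 muscle-rich tumors, 3 had Ncam1 below 2 (S51, S59 and S60), while S52 stood at 4.38 and S56 at 3.27.

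Among themselves, the 9 members other than Ncam1 had a positive r in all 36 pairs, from 0.648 (Pax7 and Myl4) to 0.956 (Mef2c and Cdh15) and a median of 0.79. The 9 pairs with Ncam1 had r from -0.405 (Mef2c) to -0.025 (Mymk). Since all 10 genes were measured in the same libraries and 9 followed mature muscle, these correlations share that relation. Mymk and Myl4 correlated with r = 0.869, and each of them less well with the mature muscle level.

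The genes most like each member over the 19 tumors were found among the genes tested. For Myod1 they were Dusp27 (r = 0.968), Myo18b (0.967) and Synpo2l (0.965), and for Myf6 Ctxn3 (0.978), Ip6k3 (0.976) and Cacng1, a calcium channel subunit of skeletal muscle (0.975). For Myog they were Adprhl1 (0.924), Abra (0.895) and Ip6k3 (0.888), and for Mef2c Usp13 (0.993), Zfp106 (0.991) and Gm26899 (0.991). Cdh15 was most like Hspb2 (0.974), Mapt (0.970) and Prob1 (0.969), and Myl4 like Tnnt2, the cardiac and embryonic troponin T (0.924), Chrnd, a subunit of the acetylcholine receptor (0.916), and Lmod2 (0.902).

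Mymk was most like Myl4 (0.869), Arpp21 (0.858) and Tceal7 (0.856), and its likeness was thus led by another member. For the low genes they were Gadd45a (0.834), P2rx5 (0.820) and Tas1r1 (0.818) for Myf5, and Ccnk (0.937), Nsun4 (0.935) and U2af1l4 (0.935) for Pax7. Ncam1 was most like Rbfox2, a splicing regulator (0.918), Zfp827 (0.915) and Casc4 (0.913). None of these genes is on the mature muscle list.

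**Figure D3:**
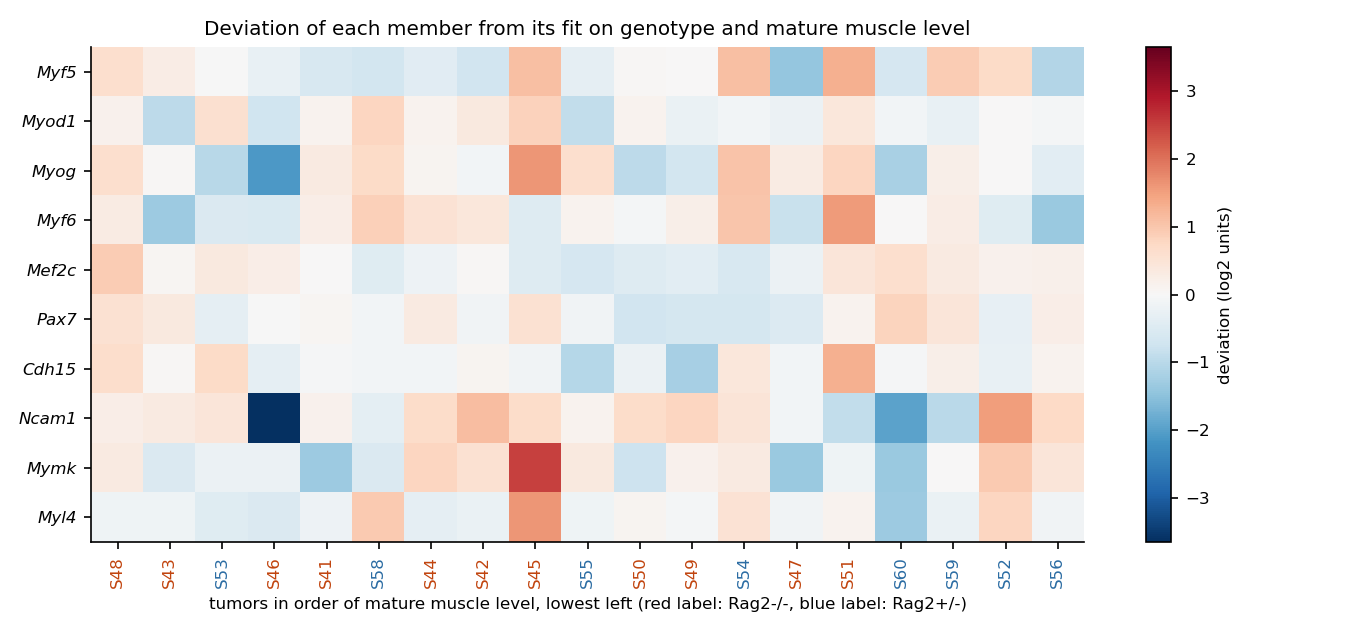
Deviation of each gene (rows) in each tumor (columns, ordered by mature muscle level) from its fit on genotype and mature muscle level, in log2 units, with red above and blue below the fit. S45 is above the fit in Myog, Mymk and Myl4, by 1.62, 2.49 and 1.61, and S46 is far below it in Ncam1.

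Several tumors lay above the fit in most of the members. Of the 10 members, 8 were above it in S51 and 7 each in S45, S52, S54 and S59, with a median deviation of 0.76 log2 units in S45, 0.44 in S54 and 0.42 in S51. S48 had 9 of the 10 above the fit, with a median deviation of 0.45. The fitted values of Myf5, Pax7 and Mymk lay below the floor in that tumor, however, so these genes could not fall under the fit there. The Rag2-/- tumor S45 had a middle mature muscle level of 6.48, yet Mymk stood at 0.86 against a fitted -1.63, Myog at 2.94 against 1.32 and Myl4 at 4.12 against 2.51. Myod1 was above the fit by 0.85, while Myf6 was below it by 0.48 and Mef2c by 0.48. Of 14 genes of differentiating and embryonic muscle, the embryonic myosin Myh3 (1.69 against a fitted -1.50) and the fusion gene Mymx (0.59 against -2.25) deviated most in S45. In all, 10 of the 14 were above the fit there and 4 below it, of which Stac3 was lowest, by 0.54 log2 units. The count was the same in S52, and the median deviation was 0.64 in both tumors. In S48, 11 of the 14 were above the fit, with a median deviation of 0.40. The fitted values of Mymx, Myh8 and Chrnd lay below the floor in S48. S45 was singled out after its values were seen, and its deviations were not tested.

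**Figure D4:**
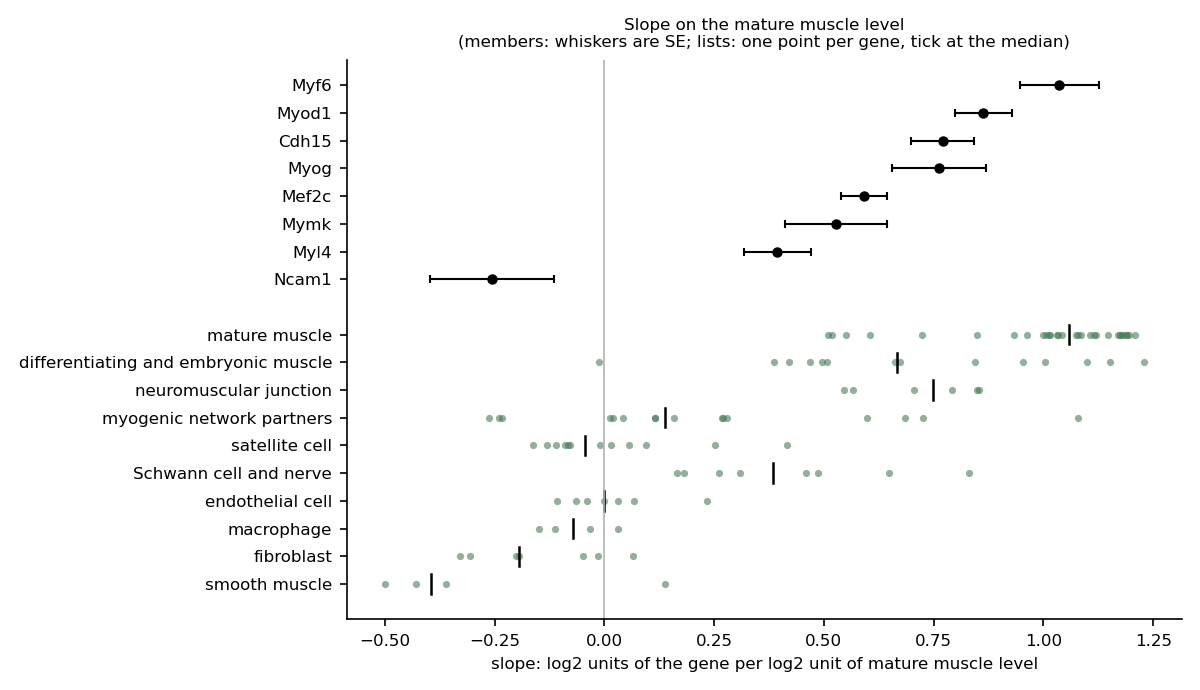
Slope of log2 value on mature muscle level (horizontal axis, log2 units per log2 unit), with genotype in the fit, for the 8 members tested (points with whiskers of 1 SE) and for genes of 10 lists (one point per gene, vertical tick at the median). The differentiating muscle and neuromuscular junction genes mostly overlap the range of the members that rose, and the satellite cell list centres near 0.

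Other genes of the myogenic pathway were examined as lists. Of 18 network partners, 16 were tested, and 9 rose and 3 fell with the mature muscle level. Over all genes tested, 21.7% rose and 25% fell. The median slope of the partners was 0.14, against -0.02 over all genes tested. After scaling to estimated fragments, 7 partners rose and 3 fell, with a median slope of 0.055 against -0.11 over all genes tested. Pax3, the partner of Pax7 in the embryo, and Mef2b were at the floor in most tumors. The homeobox factors Lbx1 (slope 1.08) and Pitx3 (0.73) rose, as did the transcriptional cofactor Eya1 (0.60) and Mef2d (0.28, limma adjusted p = 1.27e-05). The E proteins Tcf12 and Tcf3, with which the lineage factors pair, fell with slopes of -0.26 (limma adjusted p = 0.00245) and -0.24 (8.03e-04), as did Id3, which binds E proteins and keeps them from the lineage factors, with -0.23 (0.00199). Of the related inhibitors, Id1 rose with a slope of 0.11 (limma adjusted p = 0.0195), but not past the test after scaling to estimated fragments (0.031, limma adjusted p = 0.633), and Id2 had a slope of 0.013 (0.888). Between genotypes, 0 of the 16 partners were called by limma, and 7 were lower and 1 higher in Rag2-/- tumors at an unadjusted p below 0.05. Id3, the partner with the largest difference upward, was at 6.05 ± 0.54 (SD, n = 11) and 5.35 ± 0.78 (SD, n = 8).

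The satellite cell list did not follow the members. Of its 14 genes, 12 were tested, and their median slope was -0.04. The laminin receptor Itga7 rose with a slope of 0.42 (limma adjusted p = 0.00669), and Met, the receptor of hepatocyte growth factor, fell with -0.16 (0.0194). The other 10 genes tested, among them Vcam1, Sdc3 and Sdc4, passed in neither direction, although Sdc3 fell after scaling to estimated fragments. Most genes on this list are also used by fibroblasts, vessels or tumor cells, and Calcr, a receptor of quiescent satellite cells, was at the floor in most tumors. The name of the list stands for the genes alone. Between genotypes 0 of the 12 were called by limma, with a median difference of -0.02 against 0.07 over all genes tested. At an unadjusted p below 0.05, 2 were higher in Rag2-/- tumors (Met by 0.64 and Vcam1 by 0.57 log2 units) and 1 was lower (Heyl, with a difference of -0.74).

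Genes of differentiating and embryonic muscle moved with the members. With the mature muscle level, 13 of 14 rose, with a median slope of 0.67, led by Mybph (1.23), Actc1 (1.15) and Smyd1 (1.10), and Cdkn1c, an inhibitor of the cell cycle, had a slope of -0.01. All 6 neuromuscular junction genes rose, with slopes from 0.54 (Rapsn) to 0.85 (Ache). Between genotypes 0 of either list were called by limma, while at an unadjusted p below 0.05, 9 of the 14 and 4 of the 6 were lower in Rag2-/- tumors. Of the 30 mature muscle genes, 0 were called and 27 were lower at an unadjusted p below 0.05. The share of the members, 6 of 8, lay within the shares of these 3 muscle lists.

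Markers of other tissues were set against the mature muscle level too, beside the 21.7% of all genes that rose and the 25% that fell. Of 8 Schwann cell and nerve genes, 6 rose and 0 fell (4 rose after scaling to estimated fragments and 3 with quantile normalization), and their summed level ranged from 30.4 to 138.5 normalized FPKM in Rag2-/- and from 32.4 to 249.5 in Rag2+/- tumors. Of the 7 fibroblast genes 3 fell (4 after scaling to fragments), and of the 4 smooth muscle genes 3 fell, also after that scaling. Pdgfra, a receptor of fibroblasts, was at 6.24 ± 1.12 (SD, n = 11) and 5.48 ± 1.01 (SD, n = 8), and the smooth muscle calponin Cnn1 at 3.35 ± 1.66 and 2.70 ± 1.63. The endothelial gene Vwf rose, 1 of 7, and 0 of the 4 macrophage genes passed the test, while after scaling to fragments Vwf did not pass, and the endothelial gene Emcn and the macrophage genes Csf1r and Adgre1 fell. Of the 6 cardiac genes, Myh6, Nppa and Myl7 were at the floor in most tumors. Nppb and Tnni3 lay above the limit on low values, and neither moved with the mature muscle level past the test. Myl4 is also used in the atrium, and its source in these tumors was not tested. The value of 1 fragment per kilobase was 0.056 to 0.084 in the 5 muscle-rich tumors and 0.034 to 0.042 in the others but S41. In the T cell list, 5 of 5 genes were lower in Rag2-/- tumors, led by Cd3e (-4.80), Cd3g (-4.59) and Cd3d (-4.46), each with a limma adjusted p of at most 3.0e-07, and none of the 5 moved with the mature muscle level past the test.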

How the data were processed

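RNA of 19 untreated tumors had been sequenced in paired reads of 150 bases (NEBNext Ultra II libraries). The authors deposited log2 values of upper-quartile normalized FPKM, with 0.1 added before the log. Their methods give values of this kind for neoantigen expression, with reads aligned by Omicsoft to mouse B38 and Ensembl R86 genes, and raw counts from Trimmomatic, STAR, HTSeq and mm10 for differential expression. The submitters' processing notes name the latter tools. No count test was run on these normalized values. Strand was not given in the sources used here. The values of S41 are the least precise, and fragments per tumor were estimated from the steps between low values of genes with 1 transcript in GENCODE vM21 (80.0% to 89.6% of steps whole within 0.05).

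Symbols were found for 48349 of 48795 genes. Genes with a mean above -2 were fitted with limma 3.58.1 in R 4.3.3 (intensity trend, Benjamini-Hochberg over all genes at 0.05), on genotype, on the mature muscle level with genotype, and with their interaction. The fits were tested on simulated data. Two-sided exact tests counted relabelings whose absolute difference reached the observed one, with 1.32e-05 the smallest p possible. Correlations used 100000 permutations. Other steps used scipy 1.17.1, pandas 2.3.3 and numpy 2.4.6 under Python 3.11.15. P-values measure the spread between tumors. The labels name no batch.

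Named are the 10 members, the 3 list genes with the largest difference in each direction (Cd3e, Cd3g, Cd3d, Id3, Pdgfra and Cnn1), the 3 genes most like each member, Rag2 and Trp53. Other list genes were named after their values were seen. Members and lists were chosen with earlier results of these data known. Alternatives covered the tumors used, filters, the number added before the log, normalization, the muscle level and the variance model, and 2 were added after seeing the data (scaling to fragments and the 14 tumors below a muscle level of 8).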

Additional observations from a re-analysis of the deposited data

How the results depend on the processing

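In the fits across all genes, 0 members were called between genotypes in any alternative tried, and Myod1, Myf6, Cdh15, Mef2c, Myog and Myl4 rose with mature muscle in each. Mymk missed the threshold in Rag2-/- tumors alone, and Ncam1 fell past it with the 15 listed tumors, without S46 and with the log2 of the mean linear muscle value (-0.29). The genotype difference turned with the mature muscle level as a covariate in Myog (0.64) and Cdh15 (0.12), and in Ncam1 with the 15 listed tumors (0.56), with scaling to fragments (0.22) and with single tumors left out (-0.37 to 0.29). The causes were not tested. Scaling to fragments moved the median genotype difference of all genes from 0.066 to 0.315, against which the members lay between -2.20 and 0.22, and the genes at an unadjusted p below 0.05 from 1033 higher and 1437 lower to 2469 and 758. Genes called between genotypes were 24, but 52 with the 15 listed tumors, 47 without S51 and 4 with a limit of 0 on the mean log2 value. That limit left 1 list gene called, against 6. The difference in slope between genotypes called 198 genes and 0 members in the 15 listed tumors, and leaving out 1 tumor called 0 to 1 members. Its sign turned in Myod1 (-0.13) and Cdh15 (-0.050) with 1 added before the log, in Mymk (0.29) with 0.01, in Myog (-0.074) and Cdh15 (-0.15) with the listed tumors, in Myog (-0.085) and Cdh15 (-0.17) with quantile normalization, in Cdh15 (-0.001099) with the linear muscle value, and with 1 tumor left out in Cdh15 (-0.16 to 0.20) and Ncam1 (-0.090 to 0.24). In Rag2-/- tumors alone, 40 list genes were called on the slope against 76, and 743 genes against 7340. The exact tests of single members passed 0.05 in 6, but in 2 with the listed tumors, 3 without S41 and 1 to 8 with 1 tumor left out. After scaling to fragments, Mymk (p = 0.0534) and Myl4 (p = 0.0973) no longer passed this exact permutation test. No paired analysis was possible because the labels give the tumors no shared numbers. Depth limits Pax7, Myf5 and Mymk, whose values near the floor rest on few fragments.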
